A study of Mus musculus with 40 samples.

Results

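The interferon response was followed through 47 interferon-stimulated genes, among them the guanylate-binding proteins and immunity-related GTPases, in mouse cardiac fibroblasts. The members are listed genes of the interferon response whose counts summed to 10 or more across the 40 libraries. No difference between groups entered this count rule, but the list of genes was chosen with earlier results of these data known. The members were 47 of the 25210 genes that reached this count. They were sorted by role into 4 IFIT proteins (Ifit1, Ifit2, Ifit3, Ifit3b), 9 antiviral enzymes, called the OAS group here, which are OAS enzymes, PKR, nucleases, viperin and a nucleotide kinase (Oas2, Oas3, Oasl1, Oasl2, Eif2ak2, Isg20, Samhd1, Rsad2, Cmpk2), 2 Mx GTPases (Mx1, Mx2), 4 sensors of RNA and other nucleic acids (Ifih1, Ddx58, Dhx58, Zbp1), 9 genes of the ISG15 and ubiquitin system (Isg15, Usp18, Herc6, Trim21, Trim25, Trim30a, Dtx3l, Parp9, Parp14), 2 membrane restriction factors (Bst2, Ifitm3), 4 other interferon-induced genes (Ifi35, Ifi44, Rtp4, Xaf1), 6 guanylate-binding proteins (Gbp2 to Gbp7) and 7 immunity-related GTPases (Ifi47, Igtp, Irgm1, Irgm2, Iigp1, Tgtp1, Tgtp2). The members lie on 13 chromosomes, with 10 on chromosome 11, 6 each on chromosomes 5 and 16, 5 on chromosome 3 and 4 on chromosome 19.

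Interferons are secreted proteins that bind receptors at the cell surface and signal through JAK kinases to STAT factors, which together with IRF factors switch on genes that hold an interferon-stimulated response element (ISRE) or a gamma-activated site (GAS) near their start. The products restrict viruses and intracellular microbes: IFIT proteins and OAS enzymes act on foreign RNA, and guanylate-binding proteins and immunity-related GTPases act on the compartments in which microbes live. TAK1, encoded by Map3k7, is a kinase that carries signals from the IL-1 and TNF receptors to NF-κB and the stress kinases.

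Cardiac fibroblasts from C57BL/6J TAK1fl/fl mice, whose Map3k7 gene has loxP sites around exon 2, were used at passage 1 and transduced with an adenovirus that expressed either LacZ, as the control, or the recombinase iCre from a CMV promoter. Under serum starvation the cells then received no ligand (CTRL), bFGF at 20 ng/ml, TGFβ at 10 ng/ml, IL-1β at 15 ng/ml or TNFα at 10 ng/ml for 24 h before isolation of polyadenylated RNA. Each of the 10 groups had 4 replicates, which the paper describes as male. All cells, the controls included, thus had both the floxed allele and an adenovirus, and the growth medium used before the starvation had held bFGF in every group. Within each ligand the comparison of iCre with LacZ addresses which changes depend on TAK1, and within each virus the comparison of a ligand with CTRL addresses the response to that ligand. No group had iCre without the floxed allele, so effects of iCre itself cannot be told apart from those of TAK1 loss.

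Library totals over genes ran from 25360947 to 66160732 counts, and levels are given as CPM, a gene's count scaled to a common library size after each total was multiplied by its TMM factor (0.793 to 1.14). Map3k7 was 155, 144, 154 and 159 CPM in the LacZ CTRL libraries (replicates 1 to 4, the order used for all lists of 4 values) and 128, 123, 126 and 133 CPM in iCre CTRL, a log2 fold change of -0.28 ± 0.07 (SE) that did not pass the test (adjusted p = 0.14, and 0.0039 with the replicate number as a block). Under TNFα it was 251, 209, 243 and 251 CPM with LacZ against 150, 126, 145 and 155 CPM with iCre (log2 -0.71, adjusted p = 0.00083). The counts cover all exons of Map3k7, and transcripts without the floxed exon still contribute. Fibroblast markers summed to between 15351 and 69714 CPM per library, and the leukocyte gene Ptprc did not exceed 2.08 CPM. Of the cardiomyocyte markers, Myh6 had 3 counts over all 40 libraries, but Tnnt2 was present, at 110.3, 14.6, 43.2 and 28.4 CPM in LacZ CTRL and 6.65, 0.874, 4.20 and 2.5 CPM in LacZ TNFα (log2 -3.78 ± 0.72, adjusted p = 0.0048). Its part in the members' values was not tested.

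The libraries of replicate 1 stood apart for the members. Replicate 1 was the lowest of the 4 replicates for 47 of 47 members in LacZ CTRL, LacZ bFGF, LacZ IL-1β and LacZ TNFα and for 46 in LacZ TGFβ, for 39 to 46 in iCre CTRL, bFGF and TGFβ and for 21 in iCre IL-1β, but in iCre TNFα it was the highest for 37 and the lowest for 1. Its 10 libraries carry numbers 31 to 40 in the labels, while replicates 2 to 4 carry 51 to 80. Same-numbered libraries of different groups deviated from their group means together, with a mean correlation across genes of 0.56, against -0.16 for libraries of different number, so results are also given from a fit with the replicate number as a block and, where they moved, without replicate 1.

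**Figure D1:**
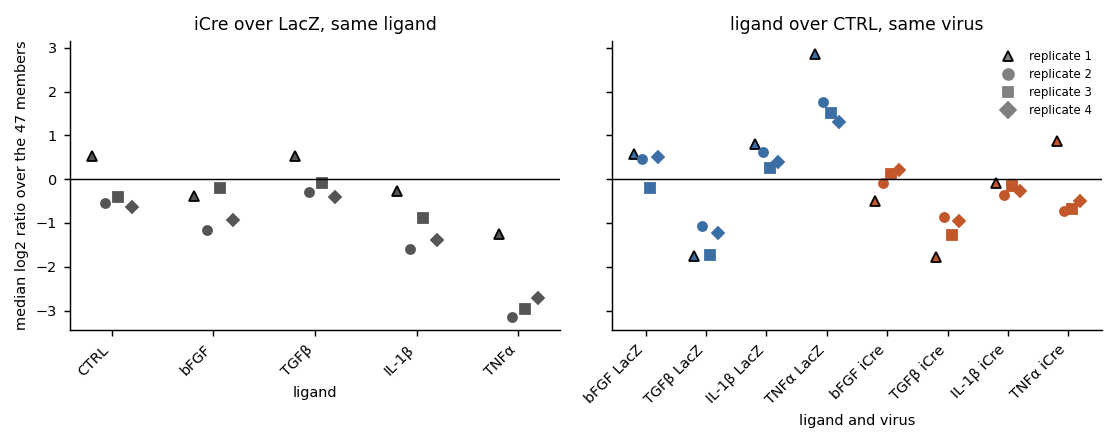
Each point is the median over the 47 members of the log2 ratio between 2 libraries of the same replicate number, with iCre over LacZ under the same ligand on the left and ligand over CTRL under the same virus on the right (blue LacZ, orange iCre); triangles outlined in black mark replicate 1. For iCre over LacZ under TNFα the medians were -1.26, -3.15, -2.96 and -2.71 in replicates 1 to 4, while in CTRL they were 0.53, -0.55, -0.41 and -0.63.

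In the untreated LacZ cells the members spanned a wide range of levels. Per kilobase of exon, Ifitm3, a membrane protein that blocks the entry of enveloped viruses, was highest at 880 ± 209 CPM per kb (SD, n = 4), followed by Bst2 (tetherin, which holds virus particles at the cell surface) at 224 ± 114 and the ubiquitin-like modifier Isg15 at 160 ± 109 CPM per kb. Ifit3 followed at 158 ± 103 CPM per kb, and below Ifitm3 these neighbours in the order did not differ beyond their spread. At the other end Gbp4, Oas3 and Tgtp1 had 0.37 ± 0.34, 0.331 ± 0.327 and 0.306 ± 0.254 CPM per kb. The guanylate-binding proteins were spread over this range, from 47.8 ± 19 CPM per kb for Gbp2 and 29.4 ± 17.2 for Gbp3 through 1.95 ± 1.18 for Gbp5 to the value given for Gbp4. The lowest total of any member over the 40 libraries was 3056 counts, and 3 members (Gbp4, Mx1 and Tgtp1) had a count of 0 in at least 1 library.

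By the deposited identifiers and GRCm38 positions, Gbp2 (ENSMUSG00000028270) lies at chr3:142620602-142638008 and Gbp5 (ENSMUSG00000105504) at chr3:142493978-142522344, both on the plus strand. Ifit3 (ENSMUSG00000074896) lies at chr19:34583531-34588731 and Isg20 (ENSMUSG00000039236) at chr7:78913424-78920396 on the plus strand. Isg15 (ENSMUSG00000035692) lies at chr4:156199424-156200818 and Ifitm3 (ENSMUSG00000025492) at chr7:141009586-141010770 on the minus strand. Sequence motifs were searched for before the starts of these and other member genes. RefSeq windows (GRCm38.p6) of the 250 bases before the most upstream listed start were at hand for 35 of the 47 members and for 27025 genes in all. An ISRE-type motif, GAAA repeated after a gap of 2 bases of any kind, on either strand, was present in the windows of 17 of the 35 members (48.6%) against 3.05% of all windows. A GAS-type motif, TTCNNNGAA, was present in 11 of the 35 (31.4%) against 7.14%, and a match to the NF-κB consensus in 6 (17.1%) against 7.03%. In 7 members both an ISRE-type and a GAS-type match were found, in 12 none of the motifs, and in 3 cases matches of different motifs overlapped. The matches are letters in a window and no measure of binding. Windows of 5 members are shown because these genes stand for the different behaviours described here, with Ifit3 and Isg15 for members of the antiviral groups, Gbp5 and Gbp7 for the guanylate-binding proteins and Isg20 for the member that rose under TGFβ. Capitals mark matches to any of the 3 motifs, and sequences run 5′ to 3′ on the strand of the gene.
Ifit3: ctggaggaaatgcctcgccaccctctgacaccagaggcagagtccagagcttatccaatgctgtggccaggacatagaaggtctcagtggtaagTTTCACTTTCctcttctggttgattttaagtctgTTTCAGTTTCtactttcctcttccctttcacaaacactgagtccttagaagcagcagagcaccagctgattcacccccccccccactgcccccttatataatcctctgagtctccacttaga
Isg15: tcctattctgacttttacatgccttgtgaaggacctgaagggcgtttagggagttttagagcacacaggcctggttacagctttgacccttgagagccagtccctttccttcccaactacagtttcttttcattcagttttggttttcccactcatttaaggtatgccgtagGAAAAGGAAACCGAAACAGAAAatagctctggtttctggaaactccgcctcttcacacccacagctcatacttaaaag
Gbp5: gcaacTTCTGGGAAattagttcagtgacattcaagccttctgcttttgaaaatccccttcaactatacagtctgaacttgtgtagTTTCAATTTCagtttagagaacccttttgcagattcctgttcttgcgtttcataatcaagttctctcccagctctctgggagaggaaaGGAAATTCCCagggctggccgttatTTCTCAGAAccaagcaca
Gbp7: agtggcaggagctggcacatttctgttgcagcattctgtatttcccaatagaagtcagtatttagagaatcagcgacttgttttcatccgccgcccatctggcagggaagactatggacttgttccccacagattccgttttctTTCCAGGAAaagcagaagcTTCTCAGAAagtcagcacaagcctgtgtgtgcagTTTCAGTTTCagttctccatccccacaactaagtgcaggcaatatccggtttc
Isg20: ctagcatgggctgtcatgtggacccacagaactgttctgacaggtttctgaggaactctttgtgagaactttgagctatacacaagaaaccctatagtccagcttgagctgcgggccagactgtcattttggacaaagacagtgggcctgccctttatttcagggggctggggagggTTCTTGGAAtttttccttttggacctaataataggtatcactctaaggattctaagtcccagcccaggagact
The Ifit3 window (chr19:34583279-34583528, plus strand) held 2 ISRE-type matches, and the Isg15 window (chr4:156200819-156201068, minus strand) held 3 that overlap one another. In the Gbp5 sequence (chr3:142496684-142496899, plus strand, shortened by 34 bases that lie in an annotated exon, and inside the span of the gene as counted, since the RefSeq start lies downstream of the first annotated transcript) a GAS-type, an ISRE-type, an NF-κB consensus and another GAS-type match were found. The Gbp7 window (chr3:142530086-142530335, plus strand) held 2 GAS-type matches and 1 ISRE-type match. The Isg20 window (chr7:78913174-78913423, plus strand) held 1 GAS-type match and no ISRE-type match.

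TNFα raised the members in LacZ cells. Their summed level was 1670, 3907, 4266 and 6259 CPM in the LacZ CTRL libraries and 10341, 15348, 13801 and 16322 CPM in the LacZ TNFα libraries, which did not overlap. The test called 35 of the 47 members higher and none lower, against 10.9% of all 25210 genes called higher and 10.4% lower, and with the replicate block it called all 47 higher (17.2% of all genes). The median log2 fold change was 1.61 over the members and -0.08 over all genes. Without replicate 1 the count was 46, and without replicate 3 it was 21. In 38 members every TNFα library was above every CTRL library, as in 12.5% of all genes, and all 47 were higher within each of the 4 replicate pairs. More responding cells and more RNA per cell cannot be told apart in bulk RNA.

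**Figure D2:**
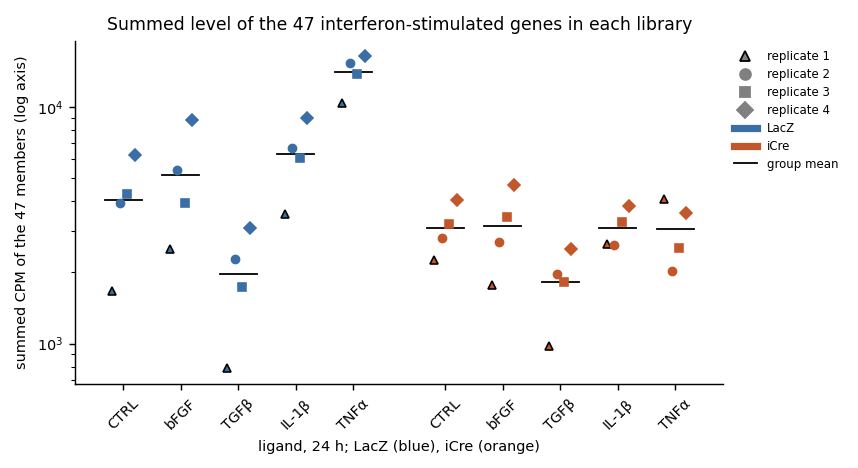
Summed CPM of the 47 members in each library (log axis) for LacZ (blue) and iCre (orange) cells under each ligand; symbols mark replicates 1 to 4 and black lines the group means. The LacZ TNFα libraries lie between 10341 and 16322 CPM and those of iCre TNFα between 2021 and 4090 CPM.

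The largest increases were among the guanylate-binding proteins, large GTPases that coat and break open vacuoles holding microbes. All 6 were called higher, with a median log2 fold change of 3.58. Gbp5, which also takes part in inflammasome activation, was 4.42, 9.27, 15.6 and 22.5 CPM in LacZ CTRL and 303, 522, 418 and 381 CPM in LacZ TNFα (log2 fold change 4.97 ± 0.47, SE, adjusted p = 9.5e-05). The group means differed 31.3-fold and the groups did not overlap. Gbp2, the most abundant of the family, was 57.2, 127, 123 and 174 CPM in LacZ CTRL and 1253, 2088, 1506 and 1530.4 CPM in LacZ TNFα (log2 3.73 ± 0.32, adjusted p = 5.8e-05). Gbp4 rose from 0.246, 1.25, 3.66 and 5.93 CPM to 25.3, 69.3, 91.1 and 98.8 CPM (log2 4.70 ± 0.77, adjusted p = 0.0022), and Gbp6 from 7.35, 13.9, 20.9 and 29.2 CPM to 164, 188, 214 and 199 CPM (log2 3.43 ± 0.36, adjusted p = 0.00019). In each of these genes the lowest TNFα library was above the highest CTRL library. The annotation places Gbp4 across Gbp8 and Gbp9 and Gbp6 across Gm43302 on the same strand, so reads that fall in both genes cannot be assigned with certainty. The same holds for Irgm2 with Igtp, Ifi47 with Olfr56 and Tgtp1 with Gm12185.

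Among the immunity-related GTPases, which act on the same vacuoles, 6 of 7 were called higher with a median log2 fold change of 1.90. Tgtp1 was 0.0893, 2.06, 0.869 and 0.901 CPM in LacZ CTRL and 5.83, 36.1, 12.5 and 11.4 CPM in LacZ TNFα (log2 4.07 ± 0.77, adjusted p = 0.0046). Its near-identical neighbour Tgtp2 rose too (log2 2.59, adjusted p = 0.0053), and reads common to the pair cannot be assigned with certainty. Irgm1, a regulator of the other family members, was 66.9, 152, 166 and 214 CPM in LacZ CTRL and 318, 401, 410 and 484 CPM in LacZ TNFα (log2 1.43 ± 0.29, adjusted p = 0.0070). The exception was Iigp1, at 19.7, 166, 134 and 207 CPM in LacZ CTRL and 247, 490, 427 and 541 CPM in LacZ TNFα, whose log2 fold change of 1.70 ± 0.55 had an adjusted p of 0.056 (1.5e-06 with the replicate block). All of its TNFα libraries were above its CTRL libraries.

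The other role groups had median log2 fold changes from 1.15 to 1.88. All 4 sensors were called higher, among them Ddx58 (RIG-I, a sensor of viral RNA), at 79.1, 136, 160 and 208 CPM in LacZ CTRL and 367, 427, 444 and 461 CPM in LacZ TNFα (log2 1.55 ± 0.24, adjusted p = 0.0017). Both membrane factors were called, with Ifitm3 at 437, 552, 622 and 776 CPM in CTRL and 1302, 1480, 1381 and 1441 CPM under TNFα (log2 1.23 ± 0.16, adjusted p = 0.00063). Of the OAS group 6 of 9 were called, with Samhd1, which depletes the nucleotides needed for viral DNA synthesis, at log2 1.94 ± 0.16 (adjusted p = 4.2e-05). The ISG15 and ubiquitin group had 6 of 9 called, the IFIT group 2 of 4, the Mx group 1 of 2 and the remaining interferon-induced genes 2 of 4. Ifit3 was 80.8, 208, 310 and 505 CPM in LacZ CTRL and 593, 777, 760 and 1031 CPM in LacZ TNFα (log2 1.52 ± 0.45, adjusted p = 0.037). Isg15 was 18.6, 123, 121 and 220 CPM against 202, 340 and 317 CPM in replicates 1 to 3 and 419 CPM in replicate 4 (log2 1.41 ± 0.55), and its ranges overlapped (adjusted p = 0.10, and 1.4e-05 with the replicate block). Oasl2, an OAS-like protein, was called (43.1, 178, 177 and 293 CPM against 351, 527, 491 and 585 CPM, log2 1.5, adjusted p = 0.038), whereas Mx2 (2.92, 13.3, 15.1 and 20.9 CPM against 17.8, 29.4, 27.3 and 35.8 CPM, log2 1.08, adjusted p = 0.13) and Ifi44 (6.45, 82.2, 65.4 and 160 CPM against 189, 356, 365 and 520 CPM, log2 2.19, adjusted p = 0.053) did not pass the test without the block.

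**Figure D3:**
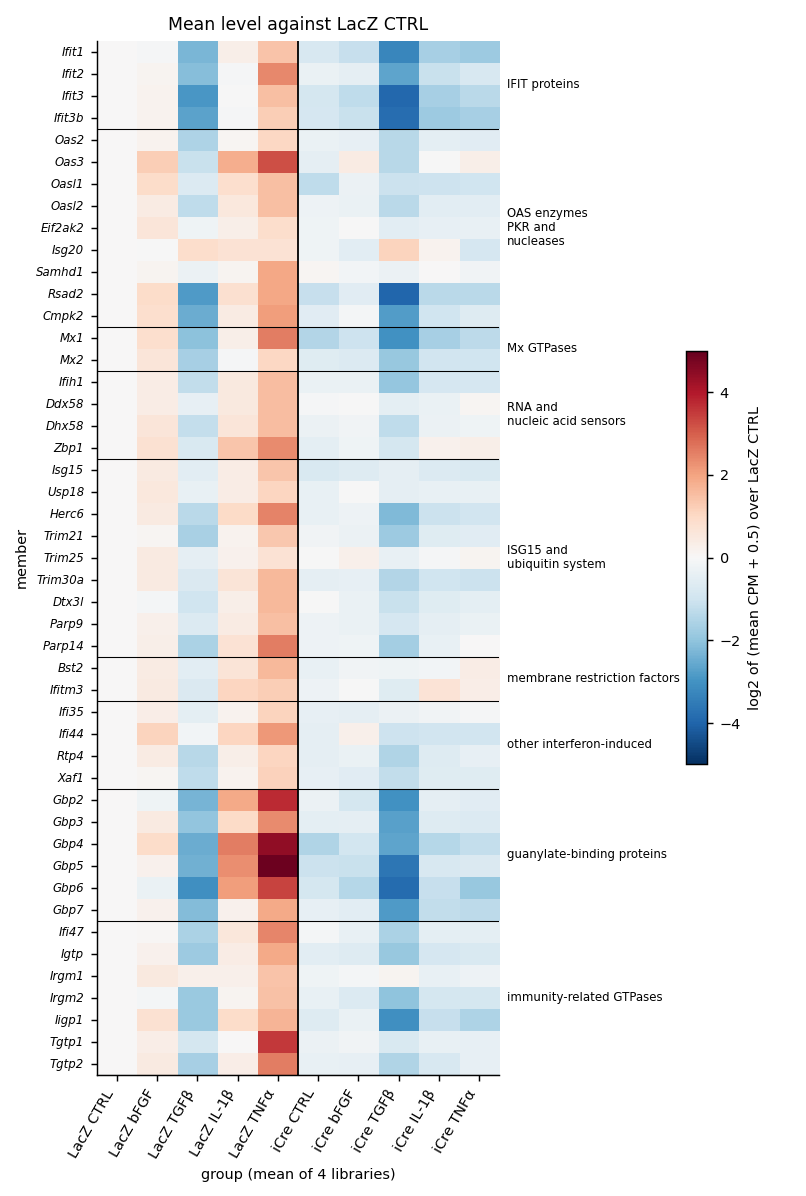
Colour gives the log2 ratio of each member's mean CPM plus 0.5 in a group to that in LacZ CTRL (means of 4 libraries; red higher, blue lower), with members in lines grouped by role and LacZ groups left of the centre line. LacZ TNFα had the highest mean of the 10 groups for 46 of 47 members, and iCre TGFβ the lowest for 33.

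In TNFα-treated cells the members were far lower with iCre than with LacZ. Their summed level in iCre TNFα was 4090 CPM in replicate 1 and 2021, 2529 and 3573 CPM in replicates 2 to 4, below all 4 LacZ TNFα libraries. The test called 46 of 47 members lower and none higher, where 12.6% of all genes were called lower and 14.8% higher, and 46 had no overlap between the groups against 14% of all genes in that direction. The median log2 fold change was -2.55 over the members and 0 over all genes. All 47 were lower in each of the 4 replicate pairs, although the median log2 ratio of the pair was -1.26 in replicate 1 against -2.71 to -3.15 in the others. Without replicate 1 all 47 were called and the median was -2.93. The exception was Trim25, the ligase that modifies RIG-I, with a log2 value of -0.56 ± 0.20 and overlapping groups (adjusted p = 0.069). Blocking on the replicate number gave Trim25 an adjusted p of 0.0016 and called all 47 members lower, against 15.1% of all genes.

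The guanylate-binding proteins again showed the largest difference, with 6 of 6 called lower and a median log2 fold change of -4.84. Gbp5 was 18.4, 2.88, 5.41 and 3.66 CPM in iCre TNFα, 53.5-fold below the LacZ TNFα mean (log2 -5.71 ± 0.61, adjusted p = 0.00025). Gbp6 was 9.26, 2.81, 2.71 and 2.85 CPM (log2 -5.42 ± 0.43, adjusted p = 6.9e-05) and Gbp2 153, 50.9, 59.5 and 60.7 CPM (log2 -4.27 ± 0.39, adjusted p = 0.00013). In all 3 genes the iCre TNFα library of replicate 1 was the highest of its group and still below every LacZ TNFα library. Gbp4 was 1.91, 0.119, 0.759 and 1.01 CPM, from 5 to 75 counts (log2 -6.22 ± 0.67, adjusted p = 0.00026), so its fold change rests on few counts on the iCre side. The promoter windows of Gbp5 and Gbp7 shown above belong to genes with log2 fold changes of -5.71 and -3.21 here, and those of Ifit3 and Isg15 to genes with -2.85 and -2.16. Gbp2, at -4.27, had an ISRE-type but no GAS-type match in its window. Whether the motifs go with the size of the change was not tested.

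The immunity-related GTPases were called lower in 7 of 7, with a median log2 fold change of -2.92. Tgtp1 fell to 1.40, 0.309, 0.292 and 0.422 CPM (log2 -4.74 ± 0.71, adjusted p = 0.0011), Iigp1 was 65.1, 31.0, 30.5 and 50.4 CPM (log2 -3.25 ± 0.32, adjusted p = 0.00017) and Irgm1 170, 74.4, 107 and 149.7 CPM (log2 -1.67 ± 0.24, adjusted p = 0.00098). None of these values reached the lowest LacZ TNFα library of its gene. All 4 IFIT proteins (median -3.04), all 9 of the OAS group (-2.07), both Mx GTPases (-3.14), all 4 sensors (-1.91), 8 of 9 in the ISG15 and ubiquitin group (-2.11), both membrane factors (-1.06) and all 4 remaining genes (-1.63) were called lower as well. Ifit3 was 234, 32.7, 52.1 and 114 CPM (log2 -2.85 ± 0.54, adjusted p = 0.0037), and Isg15 89.1, 35.1, 45.8 and 113 CPM (log2 -2.16 ± 0.37, adjusted p = 0.0021). Oasl2 was 174, 65.4, 85.1 and 159 CPM, Mx2 9.51, 3.76, 4.67 and 6.97 CPM, Ifi44 52.9, 17.7, 22.4 and 68.4 CPM and Ddx58 205, 104.5, 139.7 and 167 CPM. The smallest called change was in Ifitm3, at 842, 581, 766 and 851 CPM, a difference of 1.84-fold (log2 -0.86 ± 0.14, adjusted p = 0.0016).

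**Figure D4:**
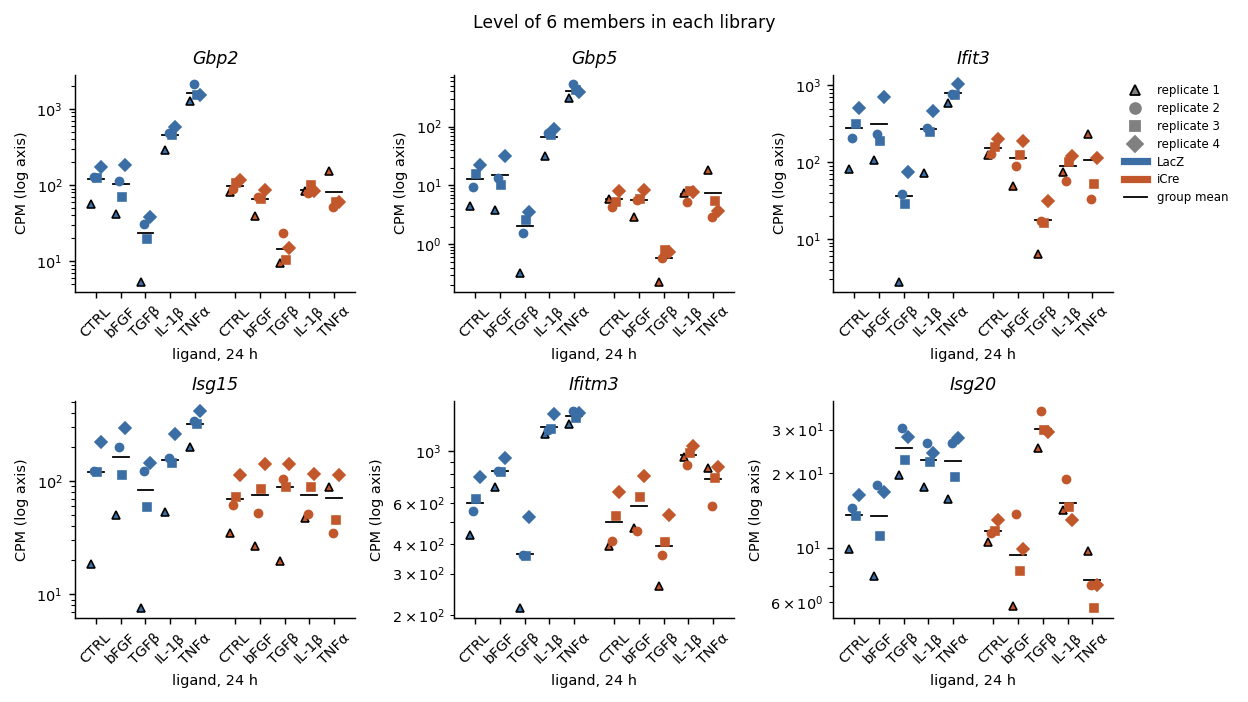
CPM (log axis) of Gbp2, Gbp5, Ifit3, Isg15, Ifitm3 and Isg20 in each of the 40 libraries, by ligand, for LacZ (blue) and iCre (orange), with symbols for replicates and lines for group means. Gbp2 under TNFα lies between 1253 and 2088 CPM with LacZ and between 50.9 and 153 CPM with iCre, whereas Ifitm3 lies between 1302 and 1480 CPM with LacZ and between 581 and 851 CPM with iCre.

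Within iCre cells TNFα left most members without a call. Ifitm3 was called higher (log2 0.64, adjusted p = 0.034) and Gbp7 (log2 -0.87, adjusted p = 0.013), Isg20 (-0.62, adjusted p = 0.022) and Iigp1 (-0.90, adjusted p = 0.044) lower, where 14.7% of all genes were called higher and 12.3% lower (27% in all). The iCre CTRL libraries had 50.1, 99.2, 83.9 and 104.1 CPM of Iigp1, of which only replicate 1 was below the highest iCre TNFα value of 65.1 CPM. The median over the members was -0.19, and in the pairs it was 0.86 in replicate 1 and -0.72, -0.67 and -0.50 in replicates 2 to 4. Without replicate 1 the test called 18 members lower and none higher, with a median of -0.63, without replicate 2 1 in each direction, without replicate 4 2 higher, and without replicate 3 none. Under the replicate block, 4 were called higher and 6 lower, below the 18.9% and 17.3% of all genes. Without replicate 1 the share of all genes called lower was 11.3%.

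The response to TNFα differed between the viruses for many members. The interaction of iCre with TNFα, which measures the difference between the responses to TNFα in iCre and LacZ cells, was called negative in 28 of 47 members and positive in none, against 7.7% and 8.38% of all genes, with a median of -2.07 on the log2 scale (0.05 over all genes). With the replicate block 39 were called (11.9% of all genes negative), without replicate 1 38, and without replicates 2, 3 and 4 18, 11 and 17. With GC correction 24 were called, and Iigp1 (-2.09, adjusted p = 0.062), Trim30a (-1.82, 0.051), Ifit1 (-2.24, 0.078) and Eif2ak2 (-0.88, 0.072) were not among them. With GC correction and the block together these genes passed (adjusted p = 0.025, 0.0090, 0.034 and 0.015 in that order). All 6 guanylate-binding proteins and all 7 immunity-related GTPases were among the 28 without that correction, as were 6 of 9 in the ISG15 and ubiquitin group, 4 of 9 in the OAS group, 2 of 4 IFIT proteins, 2 of 4 sensors, 1 of the remaining 4 and none of the Mx or membrane genes. Gbp5 had the largest value, -4.59 ± 0.76 (adjusted p = 0.00068). A p above the threshold does not show that the responses were alike, and the value for Ifitm3 was -0.60 ± 0.27 (adjusted p = 0.15, and 0.024 with the block).

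**Figure D5:**
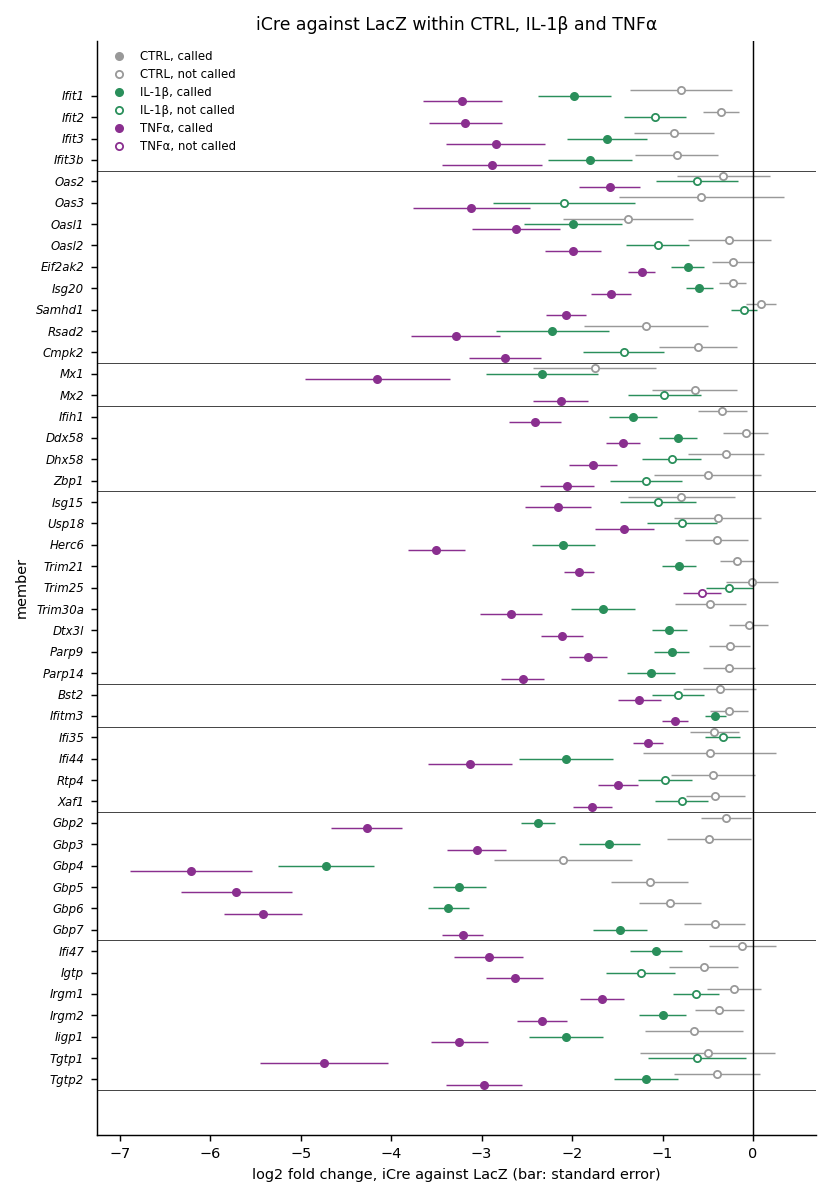
Points give the log2 fold change of iCre against LacZ for each member within CTRL (grey), IL-1β (green) and TNFα (purple), with bars of 1 standard error; filled points passed the test and open points did not. Under TNFα all members lie between -6.22 and -0.56, and under IL-1β between -4.72 and -0.10.

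For IL-1β in LacZ cells the number of members called depended on the replicate block. Without it 6 of 47 were called higher, a share close to the 11.1% of all genes, and with it 37 were (16.3% of all genes). Within the replicate pairs 44, 47, 36 and 43 of 47 members were higher under IL-1β. The 6 were Gbp2, Gbp4, Gbp5, Gbp6, Ifitm3 and Isg20, and none was called lower (9.55% of all genes). Gbp2 was 284, 485, 450.3 and 570 CPM (log2 1.91 ± 0.31, adjusted p = 0.0021), Gbp5 31.1, 76.7, 72.8 and 89.6 CPM (2.39 ± 0.47, adjusted p = 0.0055), Gbp6 46.6, 77.7, 79.9 and 109.6 CPM (2.15 ± 0.39, adjusted p = 0.0036) and Gbp4 4.5, 17.3, 21.7 and 30.7 CPM (2.76 ± 0.79, adjusted p = 0.033). The IL-1β libraries of Gbp2, Gbp5 and Gbp6 lay above the CTRL libraries of their gene. Ifitm3 rose by 1.10 ± 0.17 on the log2 scale (adjusted p = 0.0017) and Isg20, an exonuclease for single-stranded RNA, by 0.76 ± 0.17 (adjusted p = 0.0095). The IFIT group had no call and a median of -0.04. Over all members the median was 0.42 against -0.10 over all genes, 5 members had no overlap between groups in the higher direction (12.4% of all genes), and the count rose to 10 without replicate 1.

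Under IL-1β the members were lower with iCre than with LacZ. The test called 28 of 47 lower and none higher, against 8.98% and 7.14% of all genes, with a median log2 fold change of -1.09 (0.04 over all genes). The count was 44 with the replicate block (14.9% of all genes lower), 36 without replicate 1, 18 without replicate 4 and 5 without replicate 3. In 8 members the groups did not overlap, as against 10.4% of all genes. The pair medians were -0.27 in replicate 1, where 15 of 47 members were higher with iCre, and -1.60, -0.89 and -1.39 in replicates 2 to 4. All 6 guanylate-binding proteins were called lower, with a median of -2.81. Gbp4 was 0.897, 0.418, 0.738 and 0.776 CPM in iCre IL-1β (log2 -4.72 ± 0.53, adjusted p = 0.00034), Gbp6 8.39, 7.29, 8.46 and 6.42 CPM (-3.37 ± 0.23, adjusted p = 3.1e-05), Gbp5 7.42, 5.24, 8.14 and 7.81 CPM (-3.25 ± 0.30, adjusted p = 0.00012) and Gbp2 84.5, 78.8, 99.8 and 84.2 CPM (-2.37 ± 0.19, adjusted p = 6.7e-05). For these 4 genes all iCre IL-1β libraries were below all LacZ IL-1β libraries. The calls in the other groups numbered 6 of 9 in the ISG15 and ubiquitin group, 4 of 9 in the OAS group, 4 of 7 immunity-related GTPases, 3 of 4 IFIT proteins, 2 of 4 sensors and 1 each of the Mx, membrane and remaining genes.

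Within iCre cells IL-1β lowered 6 members and raised Ifitm3, where 6.88% of all genes were called lower and 9.38% higher. Ifitm3 was 392, 411, 526 and 667 CPM in iCre CTRL and 939, 869.9, 981 and 1044 CPM in iCre IL-1β (log2 0.96 ± 0.17, adjusted p = 0.0043), so it rose under IL-1β with both viruses. Ifit3b, a copy of Ifit3, was 39.2, 47.6, 59.2 and 75.3 CPM in iCre CTRL and 21.8, 15.7, 31.8 and 39.5 CPM in iCre IL-1β (log2 -1.01 ± 0.29, adjusted p = 0.038), and reads common to Ifit3 and Ifit3b cannot be assigned with certainty. Ifit2, Gbp7, Dtx3l, Irgm2 and Trim21 were also called lower, with log2 fold changes from -0.80 to -0.45. Without replicate 3 only 2 members were called, 1 in each direction. With the replicate block 7 were called higher and 25 lower, against 18.1% and 15.6% of all genes. The interaction of iCre with IL-1β was called in 3 members, Gbp6 (-2.45 ± 0.45, adjusted p = 0.0024), Gbp5 (-2.11 ± 0.56, adjusted p = 0.028) and Gbp2 (-2.08 ± 0.36, adjusted p = 0.0019), each negative, a share of the members close to the 4.95% of all genes called negative. With the block 19 members were called (8.98% of all genes), the 6 guanylate-binding proteins among them, and without replicate 1 the count was 7.

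TGFβ lowered members with either virus. In LacZ cells 18 of 47 were called lower and 1 higher, against 19.3% and 17.5% of all genes, with a median log2 fold change of -1.56 (-0.17 over all genes). Blocking on replicates, 41 were lower and 1 higher (22.5% and 19.6% of all genes), without replicate 1 32 were lower, and without replicate 3 8 were. In iCre cells 25 were called lower and 1 higher, against 18.8% and 18.6% of all genes, with a median of -1.18, and with the block 38 and 2 (21.1% and 20.4%). In the lower direction the groups did not overlap in 10 members with LacZ (20% of all genes) and in 25 with iCre (19.4%). Of the LacZ cells' members, the share called lower thus lay above the share of all genes, while the count without overlap was close to it.

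Under TGFβ the guanylate-binding proteins had 5 of 6 members called lower with LacZ (median log2 fold change -2.52) and 6 of 6 with iCre (-3.03), and the IFIT proteins 3 of 4 (-2.52) and 4 of 4 (-2.76). Ifit3 was 2.79, 38.6, 28.9 and 73.8 CPM in LacZ TGFβ, below all LacZ CTRL libraries (log2 -2.94 ± 0.80, adjusted p = 0.015), and 6.38, 16.9, 16 and 30.9 CPM in iCre TGFβ against 122, 127, 159 and 198 CPM in iCre CTRL (-3.09 ± 0.39, adjusted p = 0.00012). Gbp2 was 5.41, 31.1, 19.8 and 38.0 CPM in LacZ TGFβ and 9.39, 23.2, 10.4 and 14.8 CPM in iCre TGFβ, down from 80.9, 88.6, 107.8 and 115 CPM in iCre CTRL, which were log2 differences of -2.35 with LacZ (adjusted p = 0.0045) and -2.75 with iCre (adjusted p = 2.2e-05). Gbp4 had the largest fold change in both viruses (-4.88 with LacZ, -4.15 with iCre), but only 0, 7, 3 and 3 counts in LacZ TGFβ and 0, 1, 0 and 3 counts in iCre TGFβ. The size of that change rests on few counts. Isg20 moved the other way, from 9.89, 14.4, 13.4 and 16.3 CPM to 19.6, 30.4, 22.6 and 28.0 CPM with LacZ (log2 0.91 ± 0.17, adjusted p = 0.0021) and from 10.5, 11.5, 11.7 and 12.9 CPM to 25.3, 35.7, 30.0 and 29.4 CPM with iCre (1.39 ± 0.12, adjusted p = 1.2e-05). Without the block it was the only member called higher under TGFβ in either virus (with it Irgm1 was too in iCre cells, at 0.37), and the only one whose mean was highest outside LacZ TNFα. Isg15 and Irgm1 were not called under TGFβ (Isg15 log2 -0.53 with LacZ and 0.36 with iCre, Irgm1 0.26 and 0.37).

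Between iCre and LacZ cells under TGFβ no member was called, where 2.51% of all genes were called higher and 5.87% lower (8.37% in all). Unadjusted p-values were under 0.05 for 2 members, DESeq2 called 1, the test without replicate 1 called 2, and with the replicate block 1 was called higher and 15 lower (9.67% and 11.1% of all genes). The interaction of iCre with TGFβ was called in no member with or without the block, with a median of 0.09 (0.04 over all genes), and no member had an unadjusted p under 0.05. The calls for all genes were 0.893% positive and 3.62% negative (4.51% in all).

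Without ligand and under bFGF, the edgeR test without a block called no member between iCre and LacZ cells. In CTRL 0.0278% of all genes were called higher and 0.0476% lower (0.0754% in all). The median was -0.42 (-0.03 over all genes), unadjusted p-values were under 0.05 for 4 members (Gbp4, Gbp5, Gbp6 and Mx1), DESeq2 called 1, and with the replicate block 8 were called lower (7.7% of all genes). Replicate 1 differed from the others, with 46 of 47 members higher in iCre CTRL than in LacZ CTRL in that pair and a median log2 ratio of 0.53, against -0.41 to -0.63 in replicates 2 to 4. Under bFGF no gene at all was called and 9 members had an unadjusted p under 0.05, but with the replicate block 43 of 47 members were called lower, where 7.22% of all genes were. All 47 had a negative log2 fold change, with a median of -0.76 and 0.00 over all genes, and 43, 47, 37 and 47 of 47 were lower with iCre within the 4 pairs. Whether these members were called under bFGF depended on the block.

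bFGF against CTRL gave no call for any member in either virus, against 7% of all genes called higher and 4.64% lower with LacZ, and 1.79% and 0.635% with iCre (2.42% in all). Unadjusted p-values were under 0.05 for 1 member with LacZ (Ifitm3, log2 0.47) and 3 with iCre, and DESeq2 called none. With the replicate block 25 were called higher and 1 lower with LacZ (14.2% and 13.1% of all genes), where the median was 0.42, and 5 higher and 9 lower with iCre (9.28% and 7.41%). The interaction of iCre with bFGF was called in no gene, with or without the block, and no member had an unadjusted p under 0.05.

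The genes that carry the interferon signal were counted from separate lists. Of the 16 interferon ligands listed, 2 passed the count filter, and Ifnb1 had 29 counts over the 40 libraries and at most 6 in any of them. It was not called in any comparison of TNFα. The receptor genes rose with TNFα in LacZ cells, where 5 of 6 were called higher, among them Ifnar2 (log2 1.29, adjusted p = 2.4e-05), Ifnar1 (0.81, adjusted p = 0.0064), Ifngr1 (1.35, adjusted p = 0.00034) and Ifngr2 (1.54, adjusted p = 3e-05). With iCre against LacZ under TNFα 5 of 6 were called lower, Ifnar2 with -1.38 (adjusted p = 0.00018) and Ifngr2 with -0.31 (adjusted p = 0.047). The kinase Jak2, which serves the interferon-gamma receptor, was 66.3, 92.3, 69.5 and 73.1 CPM in LacZ CTRL, 281, 474, 330.2 and 353 CPM in LacZ TNFα and 74.8, 90.7, 68.3 and 68.8 CPM in iCre TNFα. Its IL-1β values in LacZ cells, 308, 266, 304 and 348 CPM, were raised as well (log2 2.04, adjusted p = 6.1e-06). Socs1, an inhibitor of JAK signalling, was not called for TNFα in LacZ cells (0.32, adjusted p = 0.40) or between viruses under TNFα (-0.52, adjusted p = 0.098), and both passed with the replicate block (adjusted p = 0.039 and 0.023).

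Of the 12 STAT and IRF factors 8 were called higher with TNFα in LacZ cells and none lower. Irf1, a factor also induced by NF-κB, was 42.9, 47.3, 49.8 and 51.0 CPM in LacZ CTRL, 288, 407, 244 and 208 CPM in LacZ TNFα and 81.7, 60.3, 62.8 and 53.7 CPM in iCre TNFα. TNFα raised it in LacZ cells by 2.59 on the log2 scale (adjusted p = 2.7e-05), and under TNFα it was lower with iCre, at -2.13 (adjusted p = 0.0002). Replicate 1 was again the lowest in LacZ CTRL, by a small margin. Under TNFα 9 of the 12 factors were lower with iCre, Irf7 (-2.21, adjusted p = 0.0018), Stat2 (-1.51, adjusted p = 0.001) and Irf9 (-0.50, adjusted p = 0.01) among them, and 1, Irf3, was higher (0.35, adjusted p = 0.0086). Under TGFβ in LacZ cells Irf1 was lower (-1.74, adjusted p = 1.9e-06).

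Other genes of the response were counted in the same comparisons. Of all 25210 genes tested, 2745 were called higher and 2613 lower with TNFα in LacZ cells. With iCre against LacZ, 3174 were called lower and 3720 higher under TNFα, and 2265 and 1799 under IL-1β. All 11 genes of antigen presentation and the immunoproteasome were called higher with TNFα in LacZ cells and all 11 lower with iCre under TNFα. Of 49 interferon-stimulated genes outside the members that passed the count filter, 35 were called higher and 1 lower with TNFα in LacZ cells, and 44 lower and 1 higher with iCre under TNFα. The 5 with the most negative log2 fold changes had few or no counts with iCre, so no fold is given. Gbp10 had 134, 514, 828 and 659 counts in LacZ TNFα and 3, 0, 4 and 3 in iCre TNFα, and Gbp11 had 355, 537, 877 and 659 against 9, 4, 0 and 7. The chemokine gene Cxcl9 had 76, 1027, 491 and 498 counts against 41, 8, 13 and 9, and Cxcl11 and Trim30b had at most 1 and 0 counts in iCre TNFα. Of the 49, the gene called higher with iCre was Ifi27 (1.40, adjusted p = 0.00012). Under IL-1β 19 of the 49 were called lower with iCre and 1 higher. Of 12 sensors and adaptors upstream of interferon, 7 were called higher and 1 lower with TNFα in LacZ cells, and 7 lower and 1 higher with iCre under TNFα.

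Markers of other cells were compared between the same groups. The 6 macrophage or leukocyte markers summed to 50.1 to 145 CPM in LacZ CTRL, 41.0 to 157 CPM in LacZ TNFα, 28.2 to 81.7 CPM in iCre CTRL and 34.3 to 115 CPM in iCre TNFα, so that their sum, most of it from Lyz2, overlapped in the TNFα groups. Cd68 of this list did not overlap, at 2.35 to 4.58 CPM in LacZ TNFα and 5.22 to 7.30 CPM in iCre TNFα (log2 1.09, adjusted p = 0.0067). The 3 pericyte or smooth muscle markers summed to 61.3 to 355 CPM in LacZ TNFα and 272 to 1074 CPM in iCre TNFα, and the 10 fibroblast markers to 25795 to 34599 CPM and 15351 to 23387 CPM. Of the 10 fibroblast markers 5 were called lower with iCre under TNFα, from Col3a1 (log2 -1.77) and Col1a1 (-0.97) to Dcn (-0.55), and 2 were called higher, Vim (0.78) and Thy1 (1.03). Postn (-2.08) and Tcf21 (-1.71) were not called, and Ddr2 was at 0.03. Siglech, a marker of plasmacytoid dendritic cells, was at 0 counts. The endothelial genes Cdh5, Pecam1 and Kdr were at 0.47 to 3.98, 0.068 to 0.985 and 0.170 to 5.87 CPM in LacZ TNFα. In iCre TNFα they were at 1.81 to 12.4, 0.357 to 1.09 and 0.078 to 0.229 CPM, and each overlapped. Tnnt2 overlapped too, at 0.874 to 6.65 CPM in LacZ TNFα and 0.476 to 19.7 CPM in iCre TNFα. The part of these marker differences in the difference between viruses was not tested. Libraries of iCre cells under TGFβ, IL-1β and TNFα also had values that rose with GC content relative to the other groups, by 0.207 to 0.337 on the log2 scale per 10 percentage points, against -0.247 to -0.006 elsewhere. The members had a median GC content of 46.6%, below the 49.9% of all protein-coding genes tested. After correction for this trend 47 members were called lower with iCre under TNFα, with a median of -2.37, and 20 under IL-1β. These counts are not compared with the share of all genes called after the correction. With the replicate block added to it, more members were called under IL-1β, as given in the last section.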

How the data were processed

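Polyadenylated RNA of 40 libraries was sequenced. Per the submitters' processing notes, the authors checked reads with FastQC, whose version differs between the sources, and deposited read counts per gene from HTSeq 0.10.0 on GRCm38 (mm10). The strand setting and annotation release are not given in the sources used here. The deposited table held 55414 gene IDs, of which 52133 were in GENCODE M21 and carried 99.6% of counts. It had 0 columns of other samples. Depth was 25360947 to 66160732 counts per library. No duplicate was found among the pairs of libraries within each group. Replicates are 4 per group, and p-values measure the spread between these samples.

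Genes with at least 10 counts over the 40 libraries (25210) were tested with the edgeR 4.0.16 quasi-likelihood test in R 4.3.3 after TMM scaling, with only the compared groups in each fit (16 libraries for an interaction). Benjamini-Hochberg adjusted p at most 0.05 over all genes tested was a call, also for every adjusted p in the text. SE is the log2 fold change divided by the square root of F. CPM used the total count multiplied by the TMM factor. Scripts were tested on simulated data. The members and lists were chosen with earlier results of these data known. Values in every library were given, by a rule fixed with the design, for Map3k7, the 3 called members with the largest log2 fold change in each direction (mean at least 1 CPM) of iCre against LacZ under TGFβ, IL-1β and TNFα and of IL-1β or TNFα in LacZ cells, the most changed called member of every other comparison, and the member of each role with the highest mean CPM. Other members were named where called or the exception in their role, and pathway genes from a preset list or as the 5 most changed. The library values of Isg20, Irf1 and Jak2 and the 5 promoters were chosen after their values were seen. Alternatives were DESeq2 1.42.0, RLE scaling, other count filters, a replicate block, a GC correction (lowess span 0.3), both together, all 40 libraries in 1 fit and leaving out each replicate. Replicate numbers paired the samples: in 84 of 84 same-numbered pairs the deviations correlated above 0.1 (0.298 to 0.863, 11831 genes). Motifs were searched on both strands.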

Additional observations from a re-analysis of the deposited data

Results flagged for a closer look

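In iCre TNFα the library of replicate 1 stood far above the other 3 for 4 of the members named by the fixed rule. It held 9.26 CPM of Gbp6, 18.4 CPM of Gbp5, 1.40 CPM of Tgtp1 and 153 CPM of Gbp2. These were 4 of 160 groups of 4 libraries examined, and chance marks about 1 in 20 such groups.

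The response to IL-1β differed between iCre and LacZ cells, by the interaction test, in 3 of 47 members, where 7.71% of all genes had a called interaction: Gbp6 (-2.45 on the log2 scale), Gbp5 (-2.11) and Gbp2 (-2.08). The response to TNFα differed in 28 members, where 16.1% of all genes had a called interaction, of which Gbp5 (-4.59), Gbp6 (-4.51), Tgtp1 (-4.25), Gbp4 (-4.13), Gbp2 (-3.98), Iigp1 (-2.61), Irgm1 (-1.47) and Ddx58 (-1.37) were named by the rule. All of these values were negative.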

How the results depend on the processing

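The counts below are members called, in both directions together. Where no share of all genes is given for a setting, its counts are not compared with the rest of the genes. With the replicate block, for iCre against LacZ, 8 were called in CTRL, 43 under bFGF, 16 under TGFβ and 44 under IL-1β; for ligand against CTRL in LacZ cells, 26 under bFGF, 42 under TGFβ and 37 under IL-1β; in iCre cells, 14 under bFGF, 40 under TGFβ, 32 under IL-1β and 10 under TNFα; and for the interaction with IL-1β, 19. With GC correction and the replicate block the same comparisons gave 8, 42, 4 and 43, then 27, 44 and 35, then 13, 40 and 21 (iCre bFGF, TGFβ and IL-1β), and 14 for the interaction. Under that setting the shares of all genes called were 14.6%, 13.6%, 9.25% and 22.5%, then 27.3%, 42.6% and 33.9%, then 16.4%, 41.1% and 29.2%, and 12.6%. DESeq2 called 1 member for iCre against LacZ in CTRL, 1 under TGFβ, 12 for IL-1β in iCre cells and 6 for the interaction with IL-1β. One fit of all 40 libraries called 16 for iCre against LacZ under IL-1β, 1 for IL-1β and 2 for TNFα in iCre cells. GC correction called 1 for TNFα in iCre cells. Leaving out 1 replicate gave 0 to 2 for iCre against LacZ under TGFβ, 5 to 36 under IL-1β and 43 to 47 under TNFα; in LacZ cells 9 to 33 under TGFβ, 4 to 10 under IL-1β and 21 to 46 under TNFα; in iCre cells 23 to 30 under TGFβ, 2 to 8 under IL-1β and 0 to 18 under TNFα; and 2 to 7 and 11 to 38 for the interactions with IL-1β and TNFα. Mx1 under TNFα in iCre cells changed sign without replicate 1, from 0.27 (not called) to -1.39 (adjusted p = 0.039), and ranged up to 0.80 without replicate 4. With the replicate block no call of a member was lost. The cause of these changes was not tested.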
